A study of Caenorhabditis elegans with 21 samples.

Results

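The mRNA pool of sperm was compared with that of 1-cell embryos of the nematode Caenorhabditis elegans. The comparison used 6 of the 21 libraries of the series, chosen by their labels: 3 poly(A)-selected sperm libraries and 3 poly(A)-selected embryo libraries. One sperm library came from strain CB4856 at low purity, one from CB4856 at high purity and labelled pronase treated, and one from males of fog-2(q71). The embryos were hybrids of fem-1(hc17ts)/TX189(OMA-1::GFP) mothers and CB4856 fathers, isolated by fluorescence-activated sorting. All worms were labelled with 24 °C. Libraries of whole worms of CB4856 and of the maternal strain, and of embryos depleted of rRNA (RiboMinus), with 3 libraries each, served only as points of reference. Strain and purity differ within the sperm group, so the spread among its 3 libraries includes those differences. The embryos' mothers carried the OMA-1::GFP transgene. The gene fog-2 itself stood at 17.2 and 13.7 RPKM in the CB4856 sperm libraries and at 2.98 in the library labelled fog-2(q71).

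Nematode sperm are small crawling cells that lack flagella and acrosomes. They move by a cytoskeleton of major sperm protein instead of actin, and they discard their ribosomes before they mature. The 1-cell embryo is the fertilised egg, in which transcription is largely silent and development runs on mRNAs loaded by the mother. A sperm adds very little cytoplasm to the egg.

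Levels are RPKM, reads scaled by gene length and library depth, which can be compared between genes. The reads of embryo replicates 1 and 2 varied as sampling alone would make them (mean dispersion 0.99, where 1 is sampling), and the pair was counted as 1 sample. Replicate 3 differed from them far more, with a mean dispersion of 552.05 against replicate 1. Both dispersions take 2 reads as 1 sampled fragment, because low read numbers were more often even than odd. Without that assumption they would be larger. The comparison therefore set 3 sperm samples against 2 embryo samples, and p-values measure only the spread between these samples. Embryo depth, recovered from the steps between low values, was 106.29 to 136.11 M mapped reads. The depth of the sperm libraries is unknown, because only 4.1 to 5.3% of their values fell on whole reads, against 100% in the embryo libraries. Genes listed in no other library had a median of 0.0806 to 0.1062 RPKM in sperm, so levels near that value in sperm were not read as expression.

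Of 13383 genes that reached 1 RPKM in 2 or more of the 5 samples, 6420 (48%) were higher in sperm and 2798 (20.9%) lower. These calls come from limma on log2(RPKM + 1), at an adjusted p under 0.05 and a difference of at least 1 on the log2 scale, which is a 2-fold change. The median gene was 1.06 higher in sperm on this scale, so the split depends on the scaling. After quantile normalization the median was -0.44, with 2817 genes higher (21%) and 4784 lower (35.7%). After centring each sample on its median the median was -1.38, with 2318 higher (17.3%) and 7514 lower (56.1%). The genes called the same way under all 3 scalings were 2255 higher (16.8%) and 2656 lower (19.8%), and these are called sperm-high and embryo-high from here on. These shares over all genes are the background for every count of called list members below. Without regard to any test, all 3 sperm libraries lay above all 3 embryo libraries for 7360 genes (55%) and below them for 3587 (26.8%).

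The pools were shaped differently. The embryo libraries held 7298 to 7517 genes at an RPKM of at least 1, and the sperm libraries 12734 to 13291. The sperm libraries also listed a value for 20946 to 20978 of 21035 entries, against 13976 to 15037 in the embryo libraries. Over all entries, RPKM summed to 783152, 1072402 and 785397 in the low-purity, high-purity and fog-2 libraries. Embryo libraries summed to 785176 to 888390 and CB4856 worm libraries to 723225 to 724842. The deposited RPKM were not rescaled to equal totals. How the sperm values were made is not given in the sources used here. Its part in these gene counts, in the higher median of sperm and in ratios of sperm to worms was not tested. The 10 most abundant genes took 9.91 to 13.8% of the RPKM in embryos and 4.58 to 8.54% in sperm. The sperm-high genes made up 45.9, 58.1 and 47.9% of the RPKM in the low-purity, high-purity and fog-2 libraries, and 0.273 to 0.327% in embryos. The embryo-high genes made up 69.5 to 77% of the RPKM in embryos and 9.76 to 11.7% in sperm. The direction of these shares was fixed by the choice of the sets, so they are a description. In such bulk libraries, fewer cells of a type and less RNA per cell cannot be told apart.

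The major sperm protein genes had the largest median difference of the lists, although cytosolic ribosomal protein genes took a larger share of the sperm RPKM. Of the 100 most abundant genes in sperm 45 encode ribosomal proteins and 21 are major sperm protein genes. All 30 genes of the major sperm protein family, which assembles the crawling cytoskeleton, were higher in sperm, against 48% of all genes, and all 30 were sperm-high. Their median difference was 10.86 on the log2 scale, against 1.06 over all genes. Together they took 5.11% of the RPKM in the low-purity library, 11% in the high-purity library and 5.96% in the fog-2 library, and at most 0.000489% in an embryo library. msp-45 had an RPKM of 2895, 7283 and 2083 in low-purity, high-purity and fog-2 sperm, and 0.793, 0.711 and 0.0191 in embryo replicates 1, 2 and 3. The groups did not overlap, and the high-purity library was the highest. It differed by 11.37 ± 0.55 (SE) on the log2 scale (limma, adjusted p = 4.19e-06). msp-53 had an RPKM of 2454, 6913 and 2836 in sperm and 0.0175, 0.0184 and 0.129 in embryos. It differed by 11.73 ± 0.46 (limma, adjusted p = 2.83e-06). These differences are on the log2(RPKM + 1) scale, where the added 1 sets the size for a gene near 0 in embryos.

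The msp genes are near-identical copies. Their RPKM spanned 44 to 2895 in low-purity sperm, a 65.8-fold range, but 0.786 to 513 in CB4856 worms, a 653-fold range. For example, msp-10 stood at 1807, 5641 and 1845 in sperm and at a mean of 11.2 in CB4856 worms, while msp-53 had a mean of 384.4 in those worms. How reads shared by copies were counted is not given in the sources used here, so levels of single copies are uncertain, as are those of the small sperm peptides, histones, actins and tubulins.

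The gene with the largest difference was msrp-2, with an RPKM of 3130, 7670 and 3055 in sperm and 0.239, 0.314 and 0.049 in embryos. It differed by 11.82 ± 0.45 on the log2 scale (limma, adjusted p = 2.57e-06). All 5 tested partners of the msp cytoskeleton were sperm-high. msd-4 had an RPKM of 1344, 4832 and 1463 in sperm and at most 0.884 in embryos, and msd-2 was listed at 0 in all 3 embryo libraries. The nspd, nspa and ssp families encode small sperm peptides, and 45 of 51 tested members of these and related families were higher in sperm, 34 of them sperm-high. nspa-4 had 6385, 26174 and 3919 RPKM in sperm and was the most abundant gene of the high-purity library. In the low-purity and fog-2 libraries the most abundant gene was eef-1A.1, elongation factor 1 alpha, at 7761 and 6799 RPKM. nspa-4 was not absent from embryos, where it had 146.6, 144.6 and 22 RPKM, and it differed by 7.23 ± 0.98 (limma, adjusted p = 0.000468). nspd-2 stood at 2061, 8918 and 2618 in sperm and at most at 0.663 in embryos. Against this direction, nspe-7 was lower in sperm, at 0.622, 0.233 and 0.0954 RPKM against 5.51, 6.93 and 1.54 in embryos, a difference of -1.72 ± 0.47 (limma, adjusted p = 0.0126). That call was lost without the high-purity library (limma, adjusted p = 0.0543).

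**Figure D1:**
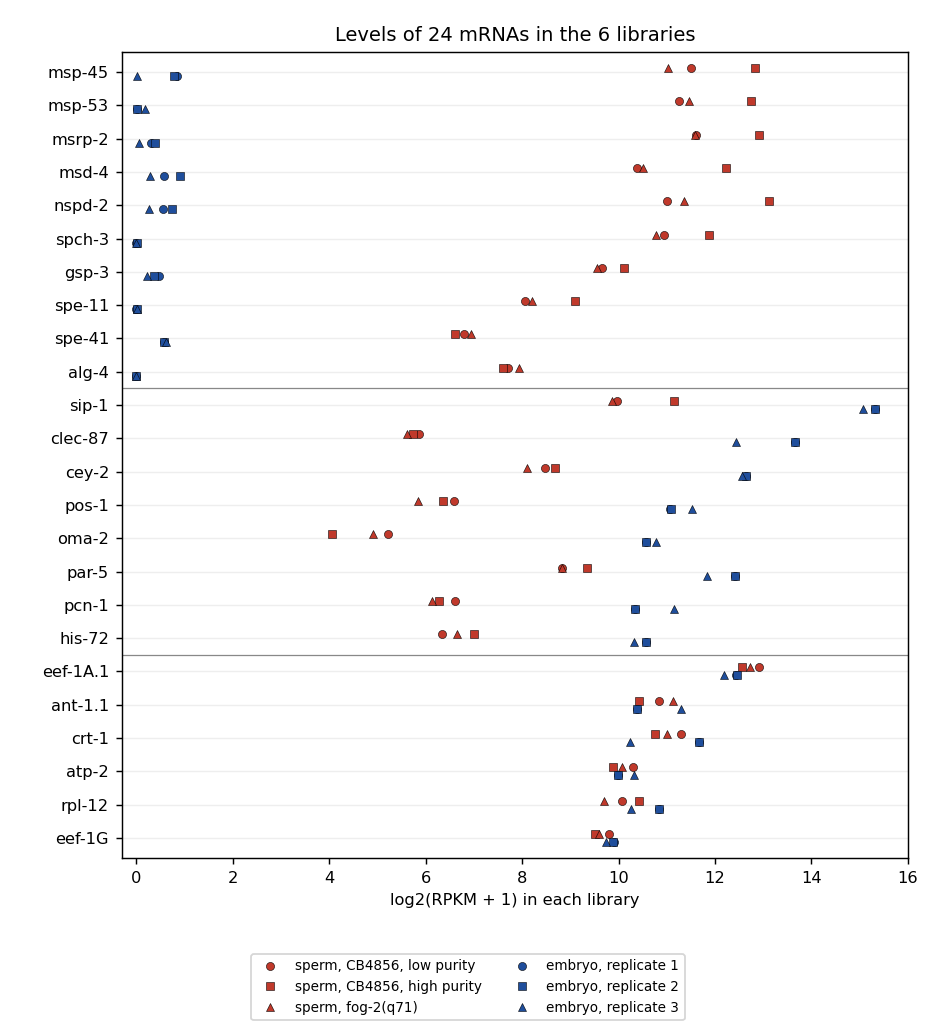
Level of 24 mRNAs in each of the 6 libraries, as log2(RPKM + 1), with sperm in red, embryos in blue and shapes for the libraries. The upper 10 genes lie near 0 in embryos, the middle 8 are highest in embryos, and the lower 6 have overlapping or adjacent levels in both groups.

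All 8 genes of sperm chromatin and its phosphatases were sperm-high, with a median difference of 9.33 on the log2 scale. spch-3, which encodes a small basic protein of sperm chromatin, had an RPKM of 1974, 3762 and 1763 in sperm, and was listed at 0, 0.0128 and 0 in embryos. It differed by 11.2 ± 0.38 (limma, adjusted p = 2.22e-06). gsp-3, a sperm-specific catalytic subunit of type 1 protein phosphatase, had 808.2, 1102 and 748.3 RPKM in sperm and at most 0.386 in embryos. It differed by 9.45 ± 0.30 (limma, adjusted p = 2.22e-06). For all 8 genes of the list the high-purity library was the highest of the 3, as it was for 4401 of all 13383 genes tested.

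Genes that act when sperm meets egg were present at lower levels. All 9 tested genes of fertilization and paternal effect were higher in sperm, and 7 were sperm-high. spe-11, a paternal factor needed by the embryo after fertilization, had an RPKM of 267.3, 544.4 and 293.7 in sperm and at most 0.0191 in embryos. It differed by 8.44 ± 0.39 (limma, adjusted p = 3.75e-06). spe-41, the sperm calcium channel formerly called trp-3, had 109.4, 97 and 121.4 RPKM in sperm and 0.496, 0.486 and 0.533 in embryos. spe-9, a sperm surface protein needed to fertilise the egg and chosen after its values were seen, reached 14.8, 20.3 and 23.6 RPKM in sperm and at most 0.00933 in embryos.

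The genes of sperm activation and of spermatid organelles were mostly sperm-high too. Of 14 activation genes 13 were higher in sperm, 11 of them sperm-high. This list holds try-5 and swm-1, which are also counted below as markers of male soma and seminal fluid. spe-4, needed for the fibrous bodies and membranous organelles of spermatids, had 85.2, 150.7 and 112.4 RPKM in sperm and at most 0.0603 in embryos. The exception was zipt-7.1, a zinc transporter of sperm activation, at 37.1, 38.2 and 38 RPKM in sperm and 167, 164.5 and 168.5 in embryos. It differed by -2.12 ± 0.26 (limma, adjusted p = 0.000282), and its levels in both worm strains were above those in sperm. Of 6 organelle genes 5 were sperm-high, among them spe-15, a myosin that sorts cell contents, at 229.4, 175.6 and 212.7 RPKM in sperm against at most 1.82. spe-39, which acts in vesicle traffic in many tissues, differed by -0.71 without passing the test (limma, adjusted p = 0.0675).

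Of the 9 genes listed as regulators of spermatogenesis, 6 were higher in sperm, 1 was lower and 3 were sperm-high. Over all genes 48% were higher, 20.9% lower and 16.8% sperm-high. The lower gene was ergo-1, which the list holds although it acts with siRNAs in eggs and embryos. alg-3 and alg-4 encode Argonaute proteins that act with small RNAs in sperm formation. alg-4 had 207.2, 193.2 and 245.3 RPKM in sperm and was listed at 0 in all embryo libraries. alg-3 had 186.1, 178.1 and 212.9 RPKM in sperm and at most 0.0288 in embryos, a difference of 7.57 ± 0.31 (limma, adjusted p = 2.91e-06). ergo-1, the Argonaute of siRNAs in eggs and embryos, went the other way, at 25.5, 10.9 and 18.4 RPKM in sperm and 79.4, 78.8 and 149.6 in embryos (difference -2.58 ± 0.45, limma, adjusted p = 0.00156). cpb-1, an RNA-binding protein of spermatogenesis, was higher by 1.46 ± 0.45 (limma, adjusted p = 0.0215), a call lost when any 1 of the sperm libraries was left out (limma, adjusted p 0.0687 to 0.0783) and reversed to -0.98 after median centring.

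For several housekeeping genes, a paralog was sperm-high while the common gene was not. ant-1.1, a carrier of ADP and ATP in the mitochondrial membrane, had 1822, 1383 and 2240 RPKM in sperm and 1339, 1336 and 2501 in embryos. Its paralogs ant-1.3 and ant-1.4 were instead sperm-high. ant-1.3 had 411.1, 608.5 and 426.4 RPKM in sperm and 1.88 to 3.06 in embryos, a difference of 7.12 ± 0.32 (limma, adjusted p = 3.64e-06). ant-1.4 had 243.8, 317 and 296 RPKM in sperm and at most 0.0267 in embryos. rpn-6.2, a proteasome lid subunit, had 65.3, 108.1 and 83 RPKM in sperm and 0.723 to 1.02 in embryos, while rpn-6.1 overlapped between the groups, at 33.5 to 56.1 in sperm and 39.4 to 182.1 in embryos. pfk-1.2, a phosphofructokinase, had 43.6, 54 and 73.4 RPKM in sperm and at most 0.0302 in embryos, while pfk-1.1 had 12 to 20.9 and 21.9 to 62.7. The histone H3 variant gene his-70 had 131.1, 338 and 141.8 RPKM in sperm and was listed at 0 in embryos, whereas his-72, another H3 variant, was embryo-high. rpn-6.1 and pfk-1.1 were chosen after their values were seen. How reads of such paralogs were divided was not tested.

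Gene classes that share a name prefix were also counted, and whether their mRNAs came from sperm or other cells was not tested. These classes and their examples were picked with their values in view, from 163 classes with at least 8 genes tested. Of 28 spe genes, named for defective spermatogenesis, 26 were higher in sperm and 21 were sperm-high. Of 8 ttbk genes, which encode kinases of the tau tubulin kinase family, 7 were sperm-high, led by ttbk-8.2 at 570.5, 985.4 and 670.9 RPKM in sperm and listed at 0 in embryos. Of 146 clec genes, which encode proteins with a C-type lectin domain, 68 were sperm-high and 4 embryo-high. The sperm-high ones included clec-197, at 918.4, 744.6 and 1529 RPKM. All 9 irld genes, of the insulin-EGF-receptor L domain class, were sperm-high. All 31 flp genes, which encode neuropeptides, were higher in sperm and 21 were sperm-high, with a summed RPKM of 945, 1438 and 963 in sperm against 240 in CB4856 worms. Of 159 nhr genes, encoding nuclear hormone receptors, 95 were higher but 0 sperm-high, against 48% and 16.8% of all genes. Another 16 nhr genes were embryo-high, as were 19.8% of all genes.

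Markers of other cell types were also present in the sperm libraries. All 17 markers of the intestine were higher in sperm, against 48% of all genes, and 13 were sperm-high. Their summed level was 0.942% of the RPKM in the low-purity library, 0.369% in the high-purity library and 0.718% in the fog-2 library, and 0.00241 to 0.00261% in embryos. vit-2, a yolk protein made by the intestine of egg-laying worms, had 647.7, 46.3 and 176 RPKM in sperm and at most 0.0717 in embryos. All 15 tested muscle markers were higher in sperm, at 0.235 to 0.261% of the RPKM, and 11 were sperm-high. Of 14 markers of cuticle and hypodermis 9 were sperm-high and 3 embryo-high. col-119, a cuticle collagen, had 2132, 1247 and 837 RPKM in sperm, while lin-26, an epidermal transcription factor, had 18.9, 19.4 and 16.1 against 67.2, 64.9 and 103.6 in embryos. Of 14 neuron markers 13 were higher and 1 lower, but 5 were sperm-high, and after median centring 5 were higher and 4 lower. Of 9 markers of the male soma 8 were higher and 5 sperm-high. Of 12 markers of the oocyte and female germline 0 were higher and 9 embryo-high.

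Set against whole worms, some marker lists lay below the worm level and others above it. The ranges of several lists overlapped, including those of sperm and male soma. The summed RPKM of 15 sperm markers was 8.23 to 20.7 times that of CB4856 worms. Intestine markers were at 0.167 to 0.311 of the worm level, muscle at 0.325 to 0.495, cuticle at 0.158 to 0.41, and oocyte and female germline at 0.1 to 0.19. Neuron markers were at 2.16 to 3.11 times the worm level and male soma markers at 4.23 to 9. Over all genes tested the median was 15.79 RPKM in sperm and 5.653 in CB4856 worms. For 46.6% of them the sperm mean was at least 2-fold above the worm mean, so a level above that of worms was common. Of the 17 intestine markers 13 had their lowest sperm level in the high-purity library, as did 6649 of all 13383 genes tested. Exceptions exceeded the worms: asp-1, an intestinal aspartic protease, had 2131, 967.5 and 2141 RPKM in sperm, against a mean of 13.6 in CB4856 and 13.3 in maternal-strain worms. The part of somatic RNA in the genes called higher in sperm was not tested.

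**Figure D2:**
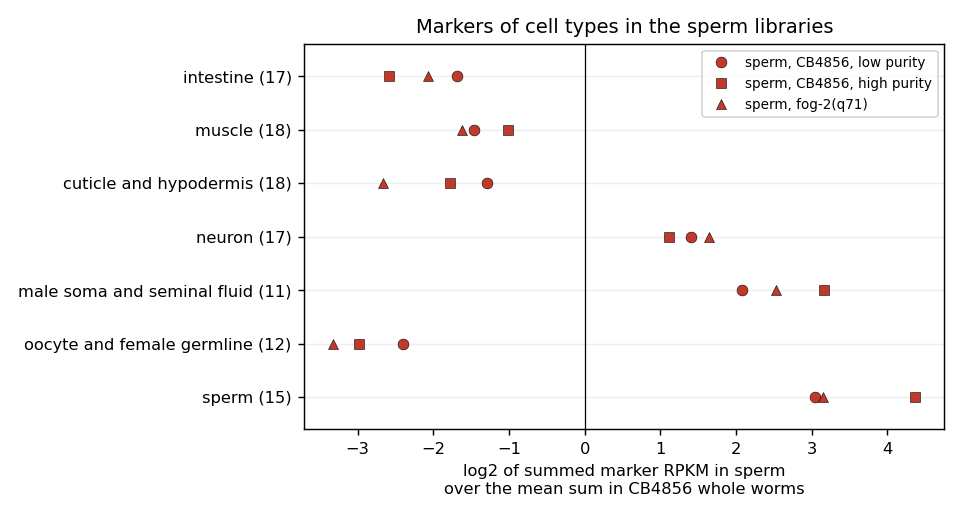
Log2 ratio of the summed RPKM of each marker list in the 3 sperm libraries (points) to its mean in CB4856 whole worms, with the number of markers in the table in parentheses. Sperm, male soma and neuron markers lie to the right of 0, and the other 4 lists to the left.

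The embryo pool was led by maternal mRNAs. sip-1, a small heat shock protein of oocytes and embryos, was the most abundant, at 40594, 40832 and 34394 RPKM in replicates 1, 2 and 3, and 1006, 2261 and 935.6 in sperm. It differed by -4.86 ± 0.52 on the log2 scale (limma, adjusted p = 0.000147). clec-87, whose protein has a C-type lectin domain, had 12940, 12907 and 5544 RPKM in embryos and 56.9, 52.2 and 47.7 in sperm (difference -7.32 ± 0.40, limma, adjusted p = 6.57e-06). cey-2, which encodes a Y-box RNA-binding protein, had 6420, 6384 and 6000 RPKM in embryos and 354, 410.6 and 274.5 in sperm. Among the 10 largest differences were 4 genes of the X chromosome, including rgs-9, at 331.3, 330.3 and 211.9 RPKM in embryos and 0.298, 0.805 and 1.17 in sperm. cdc-25.3, a phosphatase of the cell cycle, had 339.2, 342.1 and 169.8 RPKM in embryos and 0.957 to 1.31 in sperm. The others of the 10, such as C17E7.12 and W05F2.3, carry only sequence names in the table, apart from clec-87.

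Maternal regulators of RNA followed the same direction. Of 30 tested, 19 were lower in sperm, against 20.9% of all genes, and all 19 were embryo-high; 2 were higher. pos-1, a zinc finger protein that controls translation of maternal mRNAs, had 2158, 2162 and 2927 RPKM in embryos and 95, 81 and 56.6 in sperm, a difference of -5.03 ± 0.34 (limma, adjusted p = 1.46e-05). oma-2, which holds maternal mRNAs silent in oocytes, had 1515, 1512 and 1759 RPKM in embryos and 36.6, 15.6 and 29 in sperm (difference -5.94 ± 0.39, limma, adjusted p = 1.38e-05). gld-2, a cytoplasmic poly(A) polymerase, was higher in sperm by 2.08 ± 0.65 (limma, adjusted p = 0.0216). It had 46.3, 20.4 and 41 RPKM in sperm and 3.09, 3.01 and 15.8 in poly(A) embryos, but 74.5 ± 23.9 (SD, n = 2 samples) in RiboMinus embryos. The call was lost under both other scalings, without the low-purity library (limma, adjusted p = 0.095) and without the fog-2 library (limma, adjusted p = 0.0708), and the difference from RiboMinus embryos was -1.08.

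Most tested genes of the eggshell and of replication were embryo-high. Of 14 eggshell and egg activation genes 12 were lower in sperm and 11 embryo-high. cpg-1, a chondroitin proteoglycan of the eggshell, had 3210, 3202 and 1517 RPKM in embryos and 368.1, 277.9 and 139.6 in sperm, and cbd-1, of the vitelline layer, 1028, 1026 and 567.9 against 130, 62.1 and 99.3. perm-2 and perm-4, which encode parts of the eggshell permeability barrier, were higher in sperm, at 67.6, 66.6 and 37.3 and at 97.3, 41.4 and 61.7 RPKM. Both were under 1.02 in poly(A) embryos, while the worm means were 2758 and 2350 RPKM for perm-2 and 3472 and 3432 for perm-4, in CB4856 and the maternal strain. Of 20 replication genes 16 were lower in sperm and embryo-high, and 0 were higher. pcn-1, the sliding clamp of DNA polymerase, had 1293, 1293 and 2284 RPKM in embryos and 97, 77 and 69 in sperm (difference -4.40 ± 0.35, limma, adjusted p = 3.15e-05). rnr-1, a ribonucleotide reductase subunit, differed by -3.70 ± 0.33 (limma, adjusted p = 5.77e-05).

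Of 25 cell cycle genes, 14 (56%) were lower in sperm and 1 (4%) higher, against 20.9% and 48% of all genes. cyb-3, a B-type cyclin, had 645.2, 639.8 and 1595 RPKM in embryos and 91.6, 70.3 and 59.7 in sperm. cyb-1, another cyclin B, was abundant in both, at 558.1, 809.4 and 562.1 RPKM in sperm and 151.8, 151.5 and 653.5 in embryos. Its difference depended on the embryo replicate: it was 2.06 without replicate 3 and -0.05 without replicates 1 and 2. Centrosome and kinetochore genes were split, with 9 of 26 lower (34.6%) and 5 higher (19.2%), and 7 embryo-high. hcp-4, a kinetochore protein, had 110.7, 107.3 and 114.5 RPKM in sperm and 23.2, 22.4 and 34.8 in embryos, with a difference of 1.94 that turned to -0.51 after median centring.

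Of 18 polarity genes, 5 were higher in sperm and 2 lower, against 48% and 20.9% of all genes. The balance depended on the scaling, with 3 higher and 5 lower after quantile normalization and 0 and 15 after median centring, and 2 were embryo-high and 0 sperm-high. par-5, a 14-3-3 protein, was at 5456, 5461 and 3653 RPKM in embryos and 456.9, 650.6 and 453.7 in sperm (difference -3.12 ± 0.37, limma, adjusted p = 0.000232). mlc-4, a regulatory light chain of nonmuscle myosin, differed by -1.70 ± 0.36 (limma, adjusted p = 0.00403), and by -0.81 without passing the test against RiboMinus embryos. Of 11 fate factors 3 were lower in sperm and embryo-high, and 2 were higher but not sperm-high. mom-2, a Wnt ligand, had 370.4, 373 and 662.7 RPKM in embryos and 38.4, 28.9 and 26.7 in sperm, and pal-1, a homeodomain factor, 212.3, 209.1 and 264.5 against 12.5, 9.59 and 11.2. gsk-3, a kinase of Wnt signalling, was called higher in sperm by 3.24 ± 0.65 (limma, adjusted p = 0.00326), but was at 131.3 ± 43.7 RPKM (SD, n = 2) in RiboMinus embryos against 1.6 to 11.4 in poly(A) embryos. Against RiboMinus embryos its difference was -1.22, and after median centring it was not called.

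In the germ granule and small RNA list, 11 of 27 were lower in sperm, 4 higher and 9 embryo-high. The shares were 40.7% lower and 14.8% higher, against 20.9% and 48% of all genes. pgl-1, a scaffold of P granules, had 762.5, 780.9 and 290.7 RPKM in embryos and 120, 70.7 and 108.2 in sperm (difference -2.27 ± 0.46, limma, adjusted p = 0.00341). wago-1, an Argonaute, differed by -1.86 ± 0.29 (limma, adjusted p = 0.000955). glh-1, a helicase of P granules, and csr-1, an Argonaute of germline genes, were higher by 3.10 ± 0.30 (limma, adjusted p = 9.15e-05) and 2.88 ± 0.37 (limma, adjusted p = 0.000333). csr-1 had 176.7, 112.1 and 172.3 RPKM in sperm and 14.9, 14.4 and 26.1 in embryos, and its call and that of glh-1 were lost after median centring.

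Histone genes were called in both directions. Of 46 tested, 17 were lower in sperm and embryo-high, including his-72, at 1521, 1524 and 1286 RPKM in embryos and 80.4, 127.3 and 99.2 in sperm. Another 15 (32.6%) were called higher in sperm, but only his-70 was sperm-high. Over all genes 48% were higher and 20.9% lower. his-66, of the replication-dependent kind, had 17.2, 52.7 and 9.85 RPKM in sperm, 0.296 to 1.26 in poly(A) embryos and 137.1 ± 86.9 (SD, n = 2) in RiboMinus embryos. Such mRNAs largely lack a poly(A) tail, as background.

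Gene classes with the same name prefix extended the embryo pool. They, and rpb-6, were chosen after their values were seen. Among genes for mitochondrial ribosomal proteins, 23 of 39 mrpl and 19 of 28 mrps were embryo-high and 0 were sperm-high. Of 11 rpb genes, which encode subunits of RNA polymerase II, 9 were embryo-high, as were 12 of 17 mdt genes of the Mediator complex and 9 of 15 taf genes of the general factor TFIID. Of 8 rsp genes, encoding splicing factors rich in serine and arginine, 7 were embryo-high. rpb-6 had 1921, 1926 and 1041 RPKM in embryos and 91.1, 93.3 and 67.8 in sperm. Of 16 skr genes, which encode adaptors of ubiquitin ligases, 11 were embryo-high, and 17 of 34 proteasome and ubiquitin genes were too. pbs-1 had 1934, 1941 and 1376 RPKM in embryos and 182.8, 289.8 and 156.6 in sperm (difference -3.01 ± 0.37, limma, adjusted p = 0.000285).

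Of 75 cytosolic ribosomal protein genes tested, 71 were higher in sperm, 0 lower and 16 sperm-high. They made up 14.5, 14.9 and 12.6% of the RPKM in the 3 sperm libraries and 2.73, 2.73 and 1.95% in embryos. Their median difference was 2.96 on the deposited scale, which is 1.9 above that of all genes, and it was 3.01 and 0.52 under the other scalings. rpl-10 had 2765, 3321 and 2485 RPKM in sperm and 942.4, 941.5 and 429.6 in embryos (difference 2.15 ± 0.43, limma, adjusted p = 0.00321), but -0.29 after median centring, and the call was also lost without embryo replicate 3 (limma, adjusted p = 0.0915). rps-8 had 2890, 3536 and 2294 RPKM in sperm and 240.3, 230.2 and 210.7 in embryos, and was not called after median centring. The summed RPKM of the group in sperm was 0.61 to 0.989 of that in CB4856 worms. eef-2, elongation factor 2 and chosen after its values were seen, had 1123, 514.4 and 1026 RPKM in sperm, 8.03, 7.78 and 54.6 in poly(A) embryos and 150 ± 5.36 (SD, n = 2) in RiboMinus embryos.

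On the deposited scale the other lists of common machinery held genes called in both directions. Of 22 translation factors 8 were higher in sperm and 4 lower, of 41 genes of the respiratory chain 3 and 14, of 17 glycolysis genes 3 and 7, of 16 actin and tubulin genes 5 and 7, and of 18 chaperones 2 and 4. Over all genes tested 48% were higher and 20.9% lower, and the share lower was 18.2% for translation factors and 22.2% for chaperones. After median centring these lists were mostly lower, with 1 higher and 15 lower for translation factors, 2 and 38 for the respiratory chain, 2 and 14 for glycolysis, 3 and 10 for actin and tubulin, and 1 and 15 for chaperones. Over all genes 17.3% were then higher and 56.1% lower. hsp-60, a mitochondrial chaperone, had 120.3, 87.4 and 115.4 RPKM in sperm and 4.96 to 5.35 in poly(A) embryos, a difference of 4.14. In RiboMinus embryos it was at 340 ± 37.8 RPKM (SD, n = 2), and the difference from those was -1.66. Of 15 genes known for early zygotic transcription only 7 passed the filter on low values, with 4 lower in sperm and 1 higher.

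**Figure D3:**
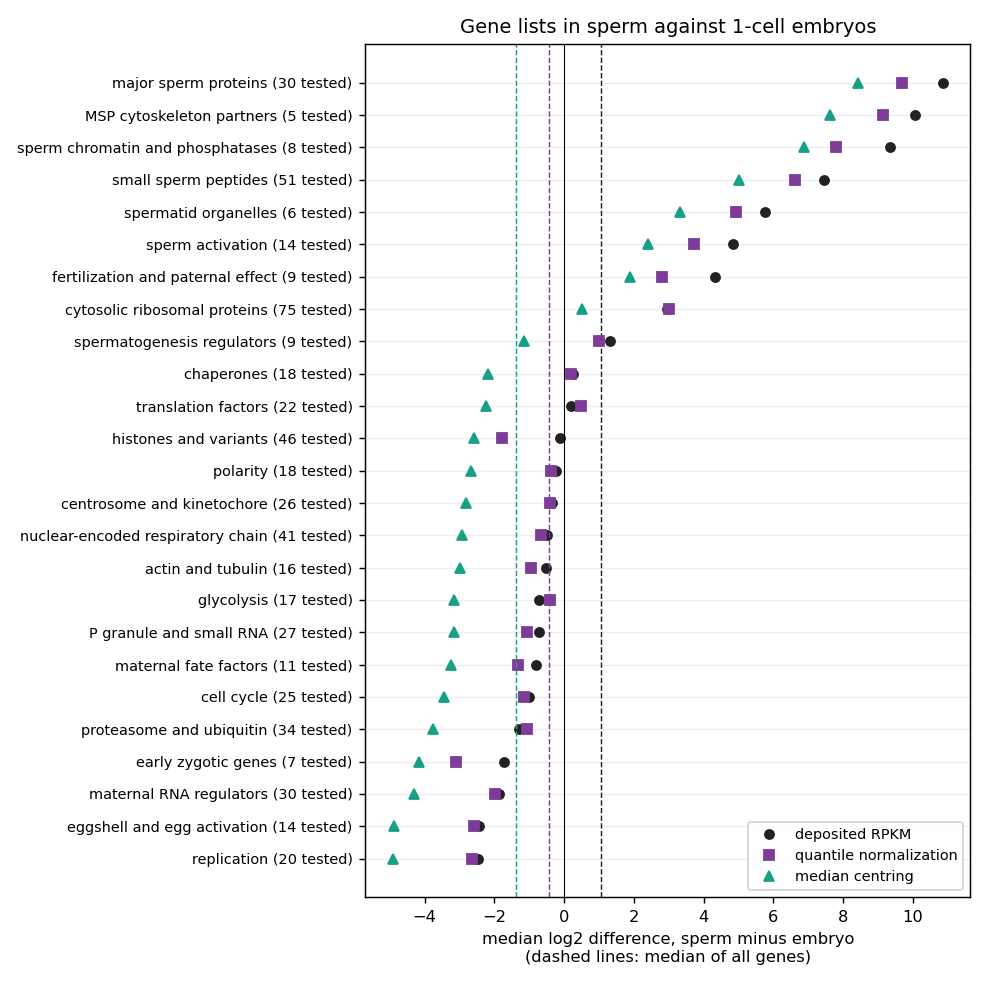
Median log2 difference (sperm minus embryo) of 25 gene lists under the deposited RPKM, quantile normalization and median centring, with dashed lines at the median of all genes on each scale. The sperm lists lie at 4.33 to 10.86 on the deposited scale except the spermatogenesis regulators, and replication, eggshell and maternal RNA regulators at the low end.

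An RPKM of at least 50 in all 6 libraries defined 855 mRNAs abundant in both, 6.39% of the number of genes tested. The members nearest the threshold were tbc-3 at a lowest value of 50.1 inside it and cars-1 at 49.9 outside it. They took 32.8, 29.5 and 29.8% of the RPKM in sperm and 51.3 to 53.2% in embryos. In this set, 90 were called higher in sperm, 401 lower and 364 neither, with a median difference of -0.95 against 1.06 over all genes. The levels chose the set, so these counts are a description. Their differences ran from -5.23 to 4.35, with 353 of the 855 within 1 of equality on the log2 scale. The groups overlapped for 196, and all sperm libraries lay below all embryo libraries for 535. For the rest they lay above.

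The set held much of the common machinery of the cell. Of the 75 ribosomal protein genes 69 belonged to it, as did 30 of 34 proteasome and ubiquitin genes, 28 of 41 tested genes of the respiratory chain, 13 of 18 chaperones, 12 of 22 translation factors and 12 of 30 maternal RNA regulators. Of the 30 msp genes and the 9 fertilization genes 0 belonged to it, and 635 of the 855 were in no list. eef-1A.1 had the highest minimum over the 6 libraries, at 7761, 6075 and 6799 RPKM in sperm and 5566, 5582 and 4687 in embryos. It differed by 0.42 ± 0.43 (limma, adjusted p = 0.395), although its 3 sperm values lay above all embryo values, and by -2.02 after median centring. eef-1G, the gamma subunit of elongation factor 1, had 896.3, 732.2 and 775.8 RPKM against 952.8, 950.3 and 860.3. atp-2, the beta subunit of the mitochondrial ATP synthase, had 1257, 944.6 and 1076 against 1013, 1013 and 1278. crt-1, calreticulin, had 2512, 1739 and 2041 against 3248, 3242 and 1214.

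Some of these mRNAs still differed in level. ndk-1, nucleoside diphosphate kinase, had 1559, 1971 and 1241 RPKM in sperm and 11796, 11800 and 4365 in embryos (difference -2.2 ± 0.52, limma, adjusted p = 0.00681). tba-2, an alpha tubulin, had 890.4, 825.1 and 748 in sperm and 3676, 3697 and 2103 in embryos. Both calls were lost without embryo replicates 1 and 2 (limma, adjusted p = 0.102 and 0.0552). ubq-2, a fusion of ubiquitin to a ribosomal protein, had 1994, 2944 and 1571 in sperm and 996.2, 986.5 and 320.2 in embryos (difference 1.89 ± 0.54, limma, adjusted p = 0.0154). That call was lost without the low-purity library (0.0612), without the high-purity library (0.0668) and without embryo replicate 3 (0.206), all adjusted p from limma, and the difference was -0.55 after median centring. The median level of the 855 was 116.6 RPKM in CB4856 and 125.6 in maternal-strain worms, and 853 of them had at least 10 RPKM in RiboMinus embryos. Of the 855, 0 were at least 2-fold higher in CB4856 than in maternal-strain worms, against 11.3% of all genes tested.

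The worm and RiboMinus libraries took no part in the calls. Of the sperm-high genes 47.5% were at least 2-fold higher in CB4856 than in maternal-strain worms, against 11.3% of all genes tested and 2.64% of the embryo-high genes. The maternal strain carries fem-1(hc17ts), a mutation that at the restrictive temperature feminises worms, so that they make no sperm. In RiboMinus embryos 1.06% of the sperm-high genes reached 10 RPKM, against 87.8% of the embryo-high genes and 40.1% of all tested. No test of these shares was made.

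The classes also sat on different chromosomes. Of genes tested with a known chromosome 12.7% were on the X, against 6.53% of the sperm-high genes, 12.5% of the embryo-high genes and 1.88% of the genes abundant in both. Chromosome IV held 24.6% of the sperm-high genes and 17.8% of all genes. Of the 100 most abundant genes in sperm 38% were on chromosome IV and 0 on the X, and of the 100 most abundant in embryos 3% were on the X. The X chromosome is known to be silenced in the male germ line. Many msp genes sit in clusters on chromosomes II and IV, so members are not independent of one another.

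**Figure D4:**
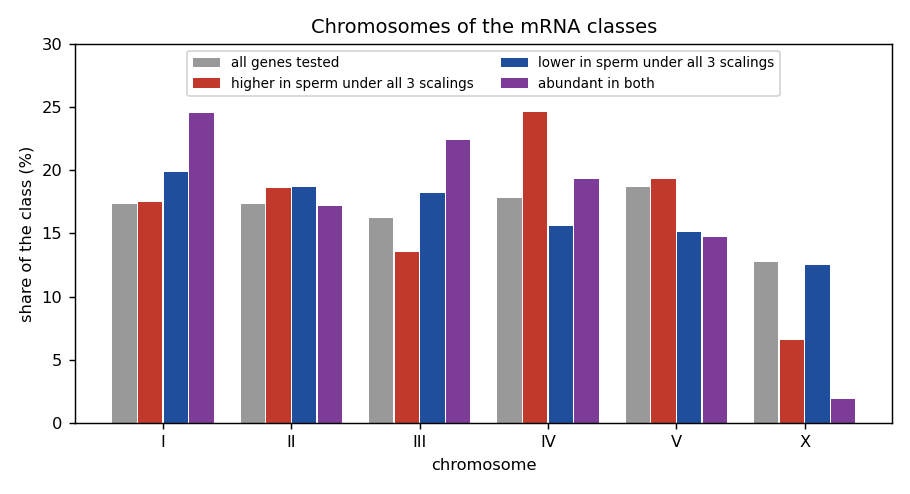
Share of each mRNA class (%) on each of the 6 chromosomes, with all genes tested in grey. The X chromosome holds 6.53% of the sperm-high genes and 1.88% of those abundant in both, against 12.7% of all genes.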

How the data were processed

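Poly(A) mRNA of sperm and 1-cell embryos was compared in a table of RPKM values that the authors deposited. BWA is named without a version in the submitters' processing notes, and the genome build and the counting of shared reads are not given in the sources used here. Per the labels' protocols, embryos were sorted, and sperm from cut males were filtered through nylon mesh. One protocol text, shared by all 3 sperm libraries, describes fog-2(q71) males and activation with pronase, while titles name CB4856 for 2 of them and pronase for 1, so which libraries were treated is not certain. Missing values were taken as 0. Gene names come from the table, 18110 of 19119 with a current symbol, and chromosomes from a RefSeq gene table for 18791.

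From the RPKM, log2(RPKM + 1) was fitted with limma 3.58.1 in R 4.3.3 (trend option), for genes that reached 1 RPKM in 2 or more of 5 samples: 3 sperm samples, the mean of embryo replicates 1 and 2, and embryo replicate 3. A call needs a Benjamini-Hochberg adjusted p under 0.05 over all genes tested and a difference of at least 1 on the log2 scale. The added 1 understates the change of low genes. On data simulated for the sperm against embryo comparison with 13383 genes, 2 of 100 genes changed 2-fold were called, 33 of 100 changed 4-fold and 63 of 100 changed 8-fold, with 2 false calls among 13083 unchanged genes. The changed genes were all above a minimum mean level, and the simulation held no shift of the median gene. Far more genes were called in the real data, and the adjusted p depends on that share. These rates therefore need not hold there. Named genes were the 10 called genes with the largest differences in each direction, the 10 most abundant of each pool, the 15 abundant in both with the highest minimum, and in each list up to 4 members of highest mean and up to 3 called against its direction, besides markers reaching an RPKM of 10. The members and the lists were chosen with earlier results of these data known. Alternatives were another pseudocount, filter, scaling, handling of embryo replicates, RiboMinus embryos, a joint fit with the other libraries, and each library left out.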

Additional observations from a re-analysis of the deposited data

How the results depend on the processing

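The count of genes higher in sperm, 6420, was 4081 with a pseudocount of 5, 2817 after quantile normalization and 2318 after median centring. The count lower, 2798, was 4784 and 7514 under these scalings. Leaving out libraries gave 4597 to 6432 higher and 2252 to 2610 lower. Against RiboMinus embryos, 5978 of the genes called higher and 1839 of those called lower kept their call. The 855 mRNAs abundant in both were 2539 at an RPKM of at least 20, 329 at 100, and 878 without the low-purity library.

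Some list medians changed sign. Median centring gave -1.14 for spermatogenesis regulators, -2.23 for translation factors and -2.17 for chaperones. Leaving out libraries gave medians of -0.47 to 0.55 for polarity, -0.97 to 0.12 for fate factors, -0.02 to 0.31 for translation factors, -0.19 to 0.31 for chaperones and -0.39 to 0.38 for histones. RiboMinus embryos gave 0.04 for actin and tubulin and -0.89 for chaperones. Without the filter on low values histones were at 0.30 and early zygotic genes at 0.03, and with 3 embryo samples histones were at 0.04.

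For 77 named genes, 1020 of 1074 values kept their direction and side of the threshold, 25 lost the call, 6 gained one and 23 reversed. After median centring the reversed values were cpb-1 -0.98, cyb-1 -1.44, rpl-10 -0.29, eef-1A.1 -2.02, crt-1 -2.38, hcp-4 -0.51, ubq-2 -0.55 and gld-2 -0.36. Against RiboMinus embryos they were gsk-3 -1.22, cyb-1 -0.02, hsp-60 -1.66, eef-1G 0.17, rpl-12 0.88 and gld-2 -1.08. With 3 embryo samples they were ant-1.1 0.11 and crt-1 -0.17. Over the fits without a library, ant-1.1 was at -0.49 to 0.41, atp-2 at -0.24 to 0.10, crt-1 at -0.65 to 0.77 and cyb-1 at -0.05 to 2.06. Leaving out single libraries alone, ant-1.1 reached as low as -0.20 and crt-1 as high as 0.19. The cause of these changes was not tested. No paired analysis was possible because the sperm and embryo groups share fewer than 2 replicate numbers in the labels: of the sperm libraries only that of fog-2 carries one. The unknown depth of the sperm libraries limits what can be said of low levels there.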
